A study of Glycine max with 5 samples.

Results

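Lipid metabolism transcripts of mature soybean pollen were followed through 38 probe sets of the Affymetrix soybean GeneChip. A probe set is the group of oligonucleotides on the array that reports on 1 transcript, or on a few near-identical ones. The study listed 1682 transcripts as higher in pollen, out of 37593 soybean probe sets measured. The members are the entries among the 220 under its heading Metabolism whose annotation held one of the words lipid, lipase, fatty, acyl, phosphatidyl, sterol, desaturase, thioesterase or glycerol. The listing rested on these arrays, and a member was therefore chosen by its difference between pollen and sporophytic tissues. That difference is given here as a description, with no test. Names are those of the best Arabidopsis matches in the annotation used by the study, covering 29 Arabidopsis genes and leaving 1 member with a match in another plant. The array annotation gave 1 gene symbol for 2 members, several for 1 and none for 35.

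RNA of cv. Bragg was taken from mature pollen (3 arrays) and from sporophytic tissues (2 arrays), each array a biological replicate according to the methods. The pollen plants stood in a glasshouse at 30 °C under 16 h of light, and a change to a 12 h photoperiod brought them to flower. Pollen came from isolated anthers, and its purity was checked by microscopy. The sporophytic RNA came from 10-day-old seedlings, whose organs the methods give as primary stem, primary roots and mature leaves, and the results text as leaves and stems in equal parts. The labels name no transgene or chemical treatment in either group. The sporophytic arrays average several organs, so a transcript of 1 organ is diluted there. In RNA from whole tissues, fewer cells of a type and less RNA per cell cannot be told apart.

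Pollen fills its vegetative cell with stored lipid and internal membranes before it is shed, and the tube that later grows from it builds plasma membrane at its tip by vesicle fusion. Fatty acids are made in plastids on acyl carrier protein, released by thioesterases and exported. They then enter phospholipids and galactolipids, the storage lipid triacylglycerol, or sphingolipids, which together with sterols are structural lipids of the plasma membrane. Phosphoinositides and phosphatidic acid are minor lipids that act as signals at the tip of pollen tubes.

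The deposited values are log2 signals after Robust Multiarray Averaging (RMA). The median over all probe sets was 4.11 to 4.24 on the pollen arrays and 5.25 to 5.43 on the sporophytic arrays. A signal of 100, or 6.64 on the log2 scale, which the methods name as a minimum, was reached by 18.4 to 19.9% of the probe sets in pollen and by 33.7 to 35.9% in sporophytic tissues. Below it a log2 difference rests on the lowest values that RMA gives. Markers of green tissue, taken from the study's list of lower transcripts, were lower in pollen for 80 of 80 probe sets, as that list requires. Of these markers, 6 reached a signal of 100 on every pollen array. Their summed signal was 3800 to 4160 on the pollen arrays and 517000 to 749000 on the sporophytic arrays. The 6 pollen markers, from the list of higher transcripts, summed to 166000 to 177000 in pollen and 32.5 to 37.0 in sporophytic tissues. Their direction was likewise set by their list. From the study's lists as used here, no entry was kept as a marker of the tapetum, the anther layer next to pollen. Any entry whose annotation ended in a male sterility gene name was set aside in that search, and its direction was not examined. The other probe sets of the array were not searched for such markers, so the share of tapetum in the pollen RNA was not tested.

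All 38 members were higher in pollen, as the list they come from requires. Their log2 differences, pollen minus sporophytic tissues, ranged from 2.44 to 9.28 with a median of 5.60, and 24 members were over 5. In limma's fit all 38 were past the threshold, against 18.9% of all probe sets called higher. On every member the lowest pollen array lay above the highest sporophytic array, which was so for 36.4% of all probe sets. Nothing is read from these counts, since the contrast chose the members. The median over all probe sets was -0.22. The other 182 Metabolism entries of the same list had a median of 4.63, the same as all 1682 entries.

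A signal of 100 was reached by all 38 members on every pollen array, against 17.4% of all probe sets. In sporophytic tissues, 28 members stayed below it on both arrays, as did 60.2% of all probe sets, 5 were above it on both and 5 on 1 array. The 28 were pollen-selective, meaning at least 2-fold higher, past the threshold, at or above 100 on each pollen array and below 100 on both sporophytic arrays. They made up 73.7% of the members, against 4.13% of all probe sets, 58.8% of the other Metabolism entries and 55.4% of the whole list. Absent calls, which the methods use for the sporophytic side, were replaced by a signal below 100. With a minimum of 50 in place of 100, 18 members were pollen-selective.

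**Figure D1:**
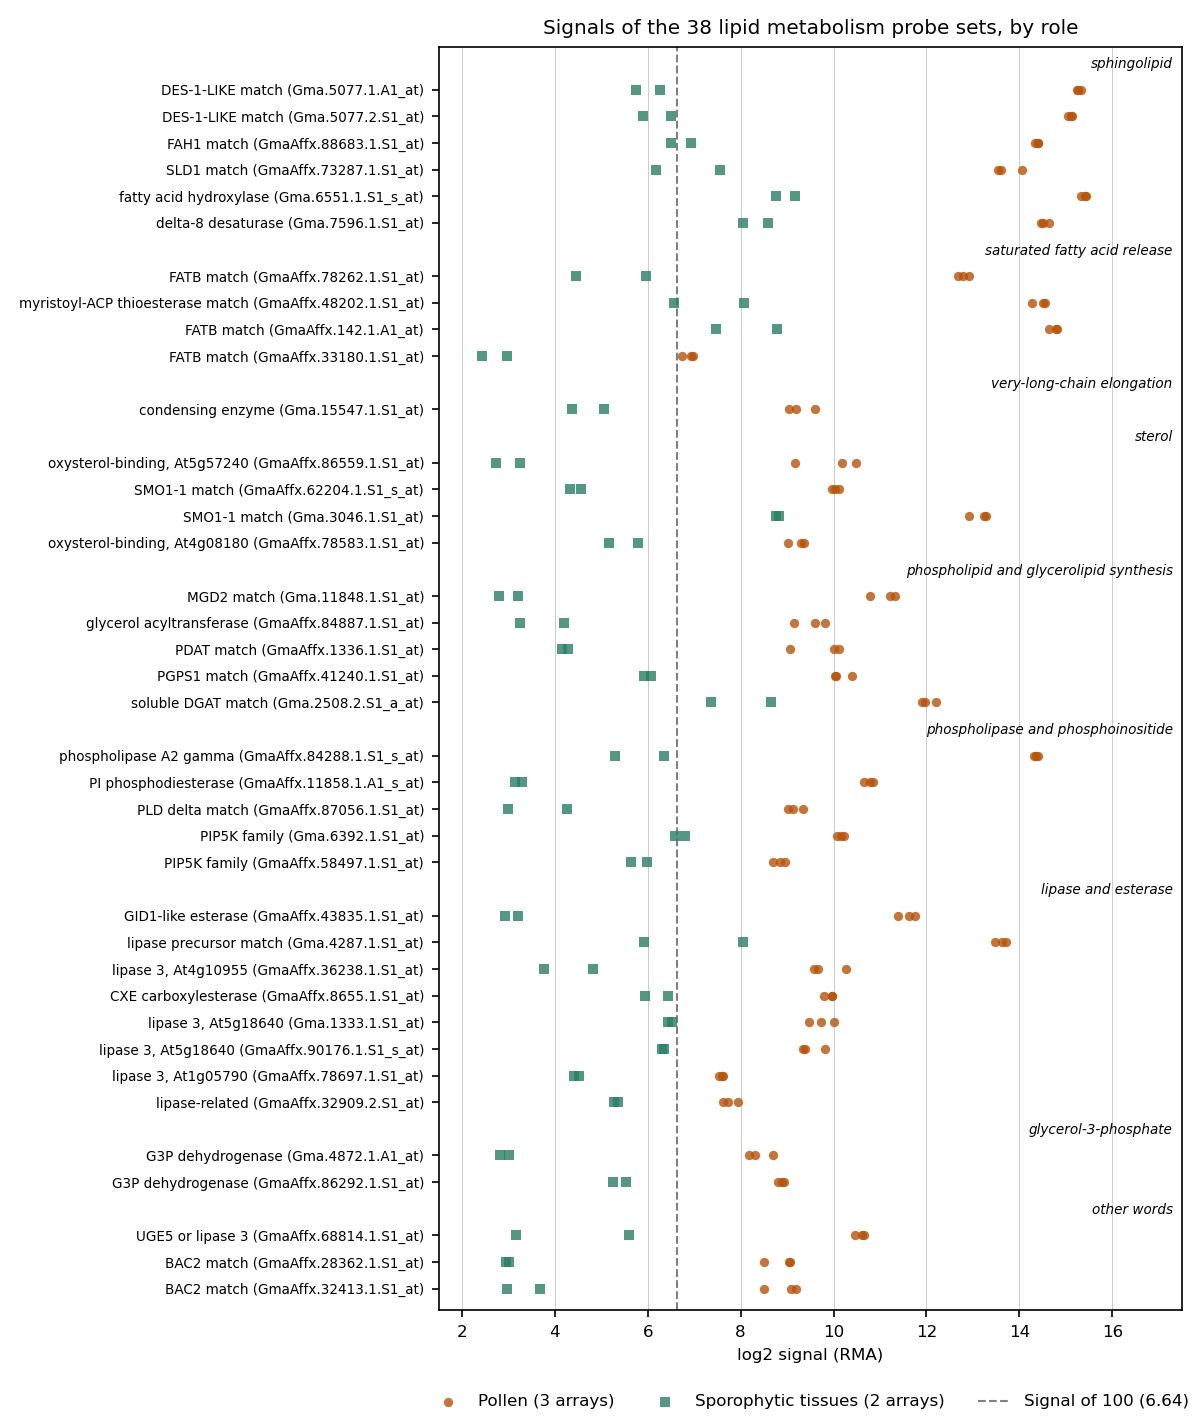
Log2 signal (x axis) of each of the 38 members on each array, 1 row per member with its name and probe set, grouped by role; circles are the 3 pollen arrays, squares the 2 sporophytic arrays, and the dashed line marks a signal of 100 (6.64). The circles lie right of the squares in every row, and 28 rows have both squares left of the line.

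Sphingolipid enzymes had a median log2 difference of 7.27 over 6 members, with a range of 6.22 to 9.28. Their mean log2 signals ran from 13.73 to 15.39 in pollen and from 6.0 to 8.96 in sporophytic tissues. Only 2 of the 6 were pollen-selective, because the other 4 reached a signal of 100 on at least 1 sporophytic array. Among the members, 2 probe sets matched DES-1-LIKE (At4g04930), the sphingolipid delta-4 desaturase of Arabidopsis, which puts a double bond into the long-chain base. The first (Gma.5077.1.A1_at), to which the array annotation gives both symbols DES1.1 and DES1.2, had log2 signals of 15.33, 15.24 and 15.27 on the pollen arrays. On the sporophytic arrays it had 5.74 and 6.26. The second (Gma.5077.2.S1_at) had 15.14, 15.05 and 15.11 in pollen, against 5.89 and 6.49 in sporophytic tissues. Their log2 differences of 9.28 ± 0.18 and 8.91 ± 0.21 (SE) correspond to 620-fold and 481-fold. The sporophytic signals were below 100, and with signals under 100 set to 100 the differences were 8.63 and 8.45. The 3 pollen arrays lay within 0.09 of each other on both.

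A pair of members matched the fatty acid hydroxylases that add a hydroxyl group to the acyl chain of sphingolipids. The FAH1 match had 14.34, 14.39 and 14.41 in pollen, against 6.93 and 6.49 in sporophytic tissues, so that 1 sporophytic array passed a signal of 100 and the other did not. The match to At4g20870 (Gma.6551.1.S1_s_at) had 15.32, 15.42 and 15.43 in pollen, against 8.76 and 9.17 in sporophytic tissues, where it was well above that signal on both arrays. The probes of this set are shared by several genes. The 2 members annotated as delta-8 desaturases, which act on another position of the long-chain base, were further apart within the groups. The SLD1 match had 14.05, 13.54 and 13.60 in pollen, against 7.56 and 6.17 in sporophytic tissues. The match to At2g46210 (Gma.7596.1.S1_at) had 14.63, 14.50 and 14.46 in pollen, against 8.58 and 8.04 in sporophytic tissues. A further probe set with that Arabidopsis match (GmaAffx.87656.1.S1_at), which the study listed as lower, had a mean of 6.24 in pollen and 11.62 in sporophytic tissues. Probe sets that share 1 Arabidopsis match thus went opposite ways, by 6.22 and by -5.38, as both lists require.

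Saturated fatty acid release was represented by 4 thioesterases, with a median log2 difference of 6.87. FATB (At1g08510) frees saturated fatty acids from acyl carrier protein in the plastid, and 3 members matched it. The first FATB match (GmaAffx.142.1.A1_at) had 14.64, 14.78 and 14.82 in pollen, against 8.78 and 7.46 in sporophytic tissues, above a signal of 100 on every array. The second (GmaAffx.78262.1.S1_at) had 12.67, 12.78 and 12.92 in pollen, against 5.96 and 4.45 in sporophytic tissues, and was pollen-selective. The third (GmaAffx.33180.1.S1_at) came near the minimum, with 6.97, 6.93 and 6.74 in pollen and 2.98 and 2.44 in sporophytic tissues. Its log2 difference was 4.18 ± 0.20 (SE), or 0.24 with signals under 100 set to 100. The match to a myristoyl-acyl carrier protein thioesterase of another plant had 14.28, 14.51 and 14.55 in pollen, against 8.08 and 6.57 in sporophytic tissues. The next step for long chains, condensation to very-long-chain fatty acids, had 1 member. This condensing enzyme (At2g16280) had 9.59, 9.19 and 9.03 in pollen, against 5.06 and 4.36 in sporophytic tissues, a log2 difference of 4.56 ± 0.30 (SE).

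Sterol genes had 4 members with a median log2 difference of 4.97. SMO1-1 (At4g12110) is a sterol 4-alpha-methyl oxidase, which removes a methyl group during sterol synthesis. Of its 2 matches, the first (Gma.3046.1.S1_at) had 12.91, 13.23 and 13.28 in pollen, against 8.76 and 8.82 in sporophytic tissues. The second (GmaAffx.62204.1.S1_s_at), whose probes are shared by several genes, had 10.03, 9.96 and 10.12 in pollen, against 4.32 and 4.56 in sporophytic tissues. Both sporophytic arrays passed a signal of 100 on the first and neither did on the second, and the log2 differences were 4.35 ± 0.14 and 5.59 ± 0.10 (SE). The other 2 members were oxysterol-binding proteins, a family that binds and moves sterols and phosphoinositides between membranes. The match to At5g57240 had 9.16, 10.49 and 10.18 in pollen, against 3.25 and 2.74 in sporophytic tissues. Pollen replicate 1 was 1.33 below replicate 2, the widest pollen spread among the 38 members. The match to At4g08180 had 9.29, 9.37 and 9.02 in pollen, against 5.17 and 5.80 in sporophytic tissues, and both were pollen-selective.

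Synthesis of phospholipids and glycerolipids had 5 members, 4 of them pollen-selective, and their median log2 difference was 5.50. MGD2 (At5g20410) is a galactolipid synthase that Arabidopsis uses when phosphate is short. Its match had 10.79, 11.22 and 11.32 in pollen, against 2.80 and 3.20 in sporophytic tissues, a log2 difference of 8.10 ± 0.23 (SE). PGPS1 (At2g39290) makes the precursor of phosphatidylglycerol, and its match had 10.39, 10.02 and 10.06 in pollen, against 5.92 and 6.06 in sporophytic tissues. The match to a soluble diacylglycerol acyltransferase (At1g48300) had 12.21, 11.90 and 11.96 in pollen, against 7.37 and 8.65 in sporophytic tissues, and was the 1 member of the group above a signal of 100 on both sporophytic arrays. Its probes are shared by several transcripts, and its annotation also names a thioredoxin-like fold. PDAT (At5g13640), which makes triacylglycerol by moving an acyl chain from a phospholipid to diacylglycerol, had a match with 9.07, 10.00 and 10.11 in pollen, against 4.16 and 4.29 in sporophytic tissues. The last member, an acyltransferase of the phospholipid or glycerol type (At1g78690), averaged 9.52 ± 0.34 in pollen (SD, n = 3) and 3.73 ± 0.66 in sporophytic tissues (SD, n = 2).

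Phospholipases and phosphoinositide enzymes had 5 members, with a median log2 difference of 5.53. Phospholipase A2 gamma (At4g29460) is a small secreted enzyme that cuts an acyl chain from phospholipids. Its match had 14.41, 14.32 and 14.35 in pollen, against 5.30 and 6.35 in sporophytic tissues, a log2 difference of 8.53 ± 0.35 (SE) or 371-fold. A probe set for a phosphatidylinositol phosphodiesterase (At4g34920) had 10.65, 10.79 and 10.84 in pollen, against 3.15 and 3.30 in sporophytic tissues. Enzymes of this kind split phosphoinositides into diacylglycerol and a soluble head group. On both, the probes are shared by several genes. PLDDELTA (At4g35790), which forms phosphatidic acid, had a match with 9.01, 9.34 and 9.13 in pollen, against 3.00 and 4.26 in sporophytic tissues. The phosphatidylinositol-4-phosphate 5-kinase family gene At3g14270 had 2 matches. One (Gma.6392.1.S1_at) had 10.07, 10.22 and 10.17 in pollen, against 6.58 and 6.81 in sporophytic tissues. The other (GmaAffx.58497.1.S1_at) had 8.95, 8.85 and 8.69 in pollen, against 5.64 and 5.99 in sporophytic tissues. The first of these crossed a signal of 100 on 1 sporophytic array by a small margin and was the only member of the group that was not pollen-selective.

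Lipases and esterases had a median log2 difference of 3.49 over 8 members, with a range of 2.44 to 8.52, and 7 were pollen-selective. An esterase similar to the gibberellin receptor family (At5g23530) had 11.38, 11.75 and 11.63 in pollen, against 3.20 and 2.93 in sporophytic tissues. The match to At1g10740, an unknown protein similar to a triacylglycerol lipase precursor, had 13.48, 13.63 and 13.72 in pollen, against 8.06 and 5.92 in sporophytic tissues. Its sporophytic arrays differed by 2.14, and 1 of them passed a signal of 100. The class 3 lipases, a family of triacylglycerol lipases, gave log2 differences of 5.54 for At4g10955, 3.26 and 3.20 for the 2 matches to At5g18640, and 3.12 for At1g05790. The annotation of the At4g10955 match also names UGE5, a sugar epimerase. The 2 matches to At5g18640 had 10.01, 9.72 and 9.48 on the first (Gma.1333.1.S1_at) and 9.81, 9.39 and 9.35 on the second (GmaAffx.90176.1.S1_s_at) in pollen, against 6.44 and 6.52 and against 6.30 and 6.34 in sporophytic tissues. Pollen replicate 1 was the highest on both. A carboxylesterase (At5g14310) had 9.79, 9.97 and 9.97 in pollen, against 5.94 and 6.44 in sporophytic tissues. A lipase-related protein (At2g44970) had a log2 difference of 2.44 ± 0.13 (SE).

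Glycerol-3-phosphate dehydrogenase (At3g10370), which Arabidopsis seedlings need to use the glycerol of their storage lipid, had 2 matches, both pollen-selective. One (GmaAffx.86292.1.S1_at) had 8.93, 8.89 and 8.81 in pollen, against 5.25 and 5.53 in sporophytic tissues. The other (Gma.4872.1.A1_at) had 8.31, 8.70 and 8.18 in pollen, against 3.01 and 2.83 in sporophytic tissues. The words of the rule also took in 3 probe sets whose leading match is no lipid enzyme. Of these, 2 matched BAC2 (At1g79900), a mitochondrial carrier of basic amino acids. One (GmaAffx.28362.1.S1_at) had 8.50, 9.06 and 9.04 in pollen, against 2.95 and 3.02 in sporophytic tissues, and the other (GmaAffx.32413.1.S1_at) had 8.51, 9.20 and 9.09 in pollen, against 3.69 and 2.96 in sporophytic tissues. Pollen replicate 1 was the lowest of the pollen arrays on both. The third has the same annotation as the At4g10955 match, and its leading match is the epimerase UGE5 (At4g10960). It had 10.46, 10.62 and 10.65 in pollen, against 3.16 and 5.59 in sporophytic tissues, and its sporophytic arrays were the furthest apart of all members.

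**Figure D2:**
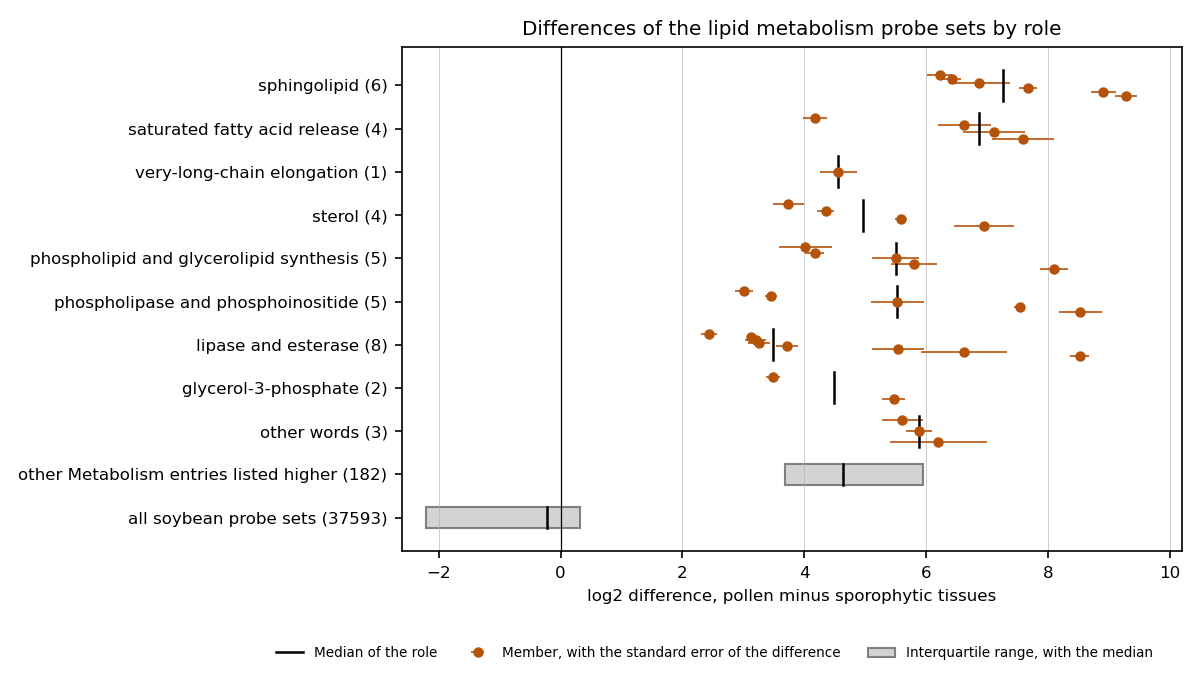
Log2 difference, pollen minus sporophytic tissues (x axis), of each member with its standard error, by role with the number of members; black lines are medians, and grey boxes are the interquartile ranges of the other 182 listed Metabolism entries and of all 37593 probe sets. Sphingolipid members lie between 6.22 and 9.28, while 5 of the 8 lipases and esterases lie below 4.

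Several members share a source. In all, 15 members fell on 7 Arabidopsis genes, so they may be copies of 1 gene or parts of 1 transcript. Going by the suffix of the probe set name, the probes of 6 members are shared by several soybean transcripts or genes. Without these 6, the median log2 difference was 5.57 over 32 members. Within pollen the members had a median range over the 3 arrays of 0.29, against 0.28 for the whole list and 0.15 for all probe sets. The range was over 1 for 2 members, the At5g57240 oxysterol-binding protein and PDAT. On both, replicate 1 was lower than replicates 2 and 3. With signals under 100 set to 100, the median difference of the 38 members was 3.41.

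The 2 sporophytic arrays also differed on the members. The listing did not use the direction of this contrast, but its test used the spread between these arrays, so the size of the gaps is not independent of the choice of members. The contrast sets 1 array against 1 array, so it has no replicate and no test. Replicate 1 was at least 2-fold above replicate 2 for 5 members and at least 2-fold below it for 5, against 8.54% and 11.5% of all probe sets. Replicate 1 was the higher for 14 of the 38 members and for 34.8% of all probe sets, and the median difference, replicate 1 minus replicate 2, was -0.11. By role, replicate 1 was the higher for 4 of 4 thioesterases, 3 of which match 1 Arabidopsis gene, 3 of 6 sphingolipid enzymes, 3 of 8 lipases and esterases, 1 of 4 sterol genes, 1 of 2 glycerol-3-phosphate dehydrogenases, the condensing enzyme and 1 of the 3 probe sets led by other matches. It was the higher for none of the 5 members of phospholipid and glycerolipid synthesis and none of the 5 phospholipases and phosphoinositide enzymes. No pattern by role is read from these counts. The widest gaps were 2.14 for the lipase precursor match and -2.42 for the UGE5 match. Green tissue markers had a summed signal of 749000 on replicate 1 and 517000 on replicate 2, with 50 of 80 probe sets higher on replicate 1. Their part in these gaps was not tested. On the FATB match GmaAffx.78262.1.S1_at the SD was 0.12 among the pollen arrays and 1.07 between the sporophytic arrays.

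**Figure D3:**
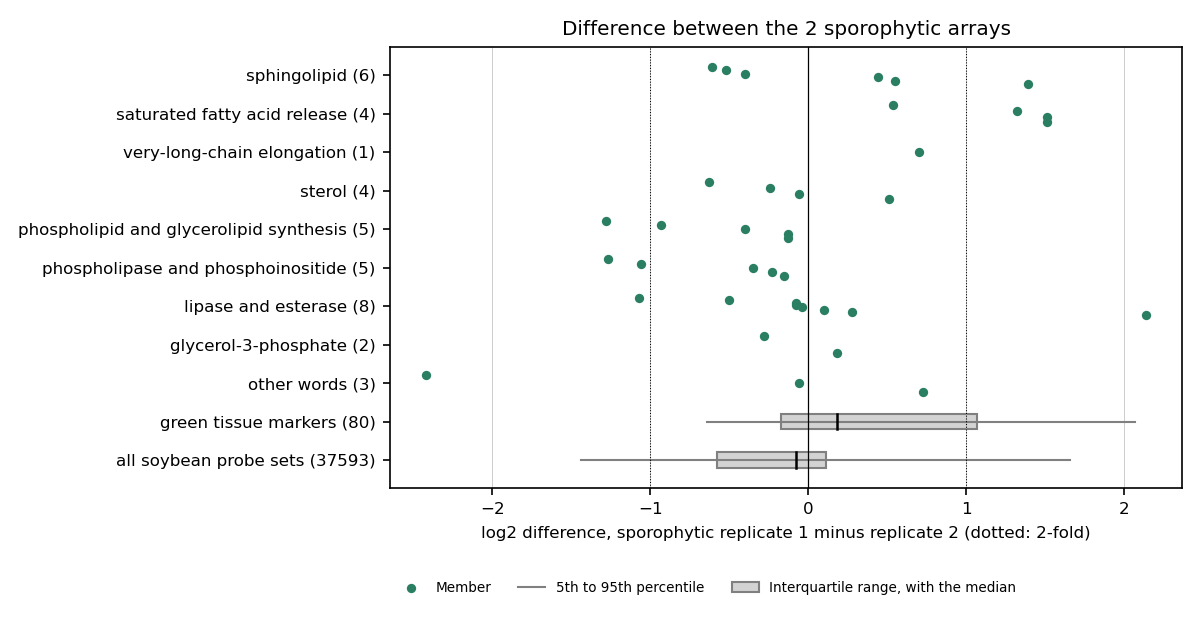
Log2 difference between sporophytic replicate 1 and replicate 2 (x axis) for each member by role, with the interquartile range (box), median (line) and 5th to 95th percentile (whisker) of 80 green tissue markers and of all 37593 probe sets; dotted lines mark 2-fold. Of the 38 members, 14 lie right of 0, with gaps of -2.42 to 2.14.

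The rule left out other lipid genes of the same list, which are described here because they stand next to the members in the pathways. Under Metabolism, 30 further entries named lipid enzymes in other words, and 29 of them were past the threshold and higher in pollen. Their median log2 difference was 5.32, and 15 were pollen-selective. The exception was an oleosin 1 probe set, for the coat protein of oil bodies, with means of 2.22 in pollen and 2.16 in sporophytic tissues. HMG-CoA reductase, which makes mevalonate for sterols, had 6 probe sets with differences of 4.36 to 8.19. The 10 probe sets annotated as phosphatidic acid phosphatases or as related to them had 3.58 to 7.94, and lipins, phosphatases that make diacylglycerol, had 2 at 3.90 and 8.17. LCB2, a subunit of the first enzyme of sphingolipid synthesis, had 2 at 3.77 and 3.88. A choline kinase, for phosphatidylcholine synthesis, had a mean of 11.19 in pollen and 2.87 in sporophytic tissues. Under other headings, 14 entries held the words of the rule, with a median of 5.93. Among them 2 diacylglycerol kinase probe sets had differences of 6.94 and 7.10, and 3 of the phosphatidylinositol 3- and 4-kinase family had 4.07 to 7.12. All were listed on these arrays, so their direction is not independent of the members'.

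The opposite list was searched with the same words. In the portion used here, 50 probe sets under Metabolism held them, and all were lower, as that list requires, with a median log2 difference of -5.04. Not all are lipid genes, since the words also took in entries such as the glyoxalases GLX2-2 and GLX2-3. GDSL lipases and their relatives, a family of secreted esterases, supplied 16 of them, at -9.24 to -4.41. Acyl carrier proteins, on which plastids build fatty acids, supplied 5 at -7.66 to -3.57. The condensing enzymes of very-long-chain synthesis supplied 5 at -5.51 to -4.18. Each of these probe sets matched either CUT1, which serves the cuticle, or a putative beta-ketoacyl-CoA synthase (At2g26640). Some relatives of members stood here. PLA2-ALPHA had a mean of 2.94 in pollen and 8.03 in sporophytic tissues. PLDALPHA2 had 4.42 in pollen and 8.56 in sporophytic tissues, and SMO2-2 had 5.32 in pollen, against 10.65 in sporophytic tissues.

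Lipid genes named by gene symbol in the array annotation were chosen through neither list, and these were tested. The symbols found, 19 in all, gave 29 probe sets. None of them is in the list of higher transcripts, and 3 are in the portion used of the list of lower ones. Of these, 5 were called higher in pollen, 9 lower and 15 neither, at an adjusted p under 0.05 from limma over all probe sets, where 18.9% were called higher and 34.5% lower. Of the 5 called higher, 3 were below a signal of 100 on every array. With array weights none was called higher by limma, and 2 had an unadjusted p under 0.05. The median log2 difference of the 29 was 0.04. The count called higher was 3, 3 and 2 without pollen replicate 1, 2 and 3 in turn. Scaling altered this split. After quantile normalization of the soybean probe sets, which moved the median of all probe sets by 0.34, 7 were higher and 6 lower, with 37.0% of all probe sets called higher. With equal medians on all arrays, which moved it by 1.15, 16 were higher and 6 lower, with 53.3% of all probe sets called higher. The lower calls were 64.3, 46.2 and 27.3% of the calls in these 3 settings, against 64.6, 41.7 and 32.9% over all probe sets.

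Acetyl-CoA carboxylase makes the malonyl-CoA for fatty acid synthesis. With the deposited values it was lower in pollen for 6 of 6 probe sets, against 34.5% of all probe sets. With either rescaling 4 were lower, and ACCB-1 and ACCB-2 were not called. Lower calls over all 37593 probe sets then numbered 9940 after quantile normalization and 9837 with equal medians. The median log2 difference of the 6 was -3.32. ACCA-1 had 3.86, 3.87 and 3.86 in pollen, against 7.94 and 8.99 in sporophytic tissues (adjusted p = 0.0012, limma). ACCC-3 had 5.10 on each pollen array, against 9.37 and 9.82 in sporophytic tissues (adjusted p = 0.00018, limma). ACCC-2 had 7.17, 6.84 and 7.18 in pollen on its first probe set (Gma.8414.1.S1_s_at), against 10.57 and 10.51 in sporophytic tissues (adjusted p = 0.00024, limma). ACCB-1 and ACCB-2, for the biotin carrier subunit, had smaller differences of -1.44 ± 0.17 and -1.26 ± 0.13 (SE), and after quantile normalization these turned to 0.14 and 0.07. KASII-A, a condensing enzyme of plastid fatty acid synthesis whose symbol was added after the values were seen, fell by 4.92 on 1 probe set (adjusted p = 0.00043, limma). The study listed this probe set among its lower transcripts, so its direction is not independent. Its second probe set was not called, with -0.54 ± 0.36 (SE).

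SMT2-2, a sterol methyltransferase, was lower in pollen, with 7.53, 7.39 and 7.36, against 12.02 and 12.10 in sporophytic tissues. Its log2 difference was -4.63 ± 0.08 (SE, adjusted p = 4.7e-05, limma). The SMO1-1 members of the same pathway have the opposite sign, but theirs was set by the list they come from, so nothing is read from this. SFR2, a galactolipid-remodelling enzyme of the chloroplast envelope added after the values were seen, was lower for 4 of 4 probe sets, at -4.17 to -2.69. All 4 were lower after either rescaling as well. Of all 37593 probe sets, 34.5% were called lower with the deposited values, 9940 after quantile normalization and 9837 with equal medians. The SFR2 probe set at -2.69 was below a signal of 100 on every array. The portion used of the study's list of lower transcripts holds 1 of the 4. Galactolipid synthesis was mixed. MGD1, the main plastid galactolipid synthase, had 6.68, 6.44 and 6.13 in pollen, against 7.67 and 8.63 in sporophytic tissues (adjusted p = 0.022, limma), and was not called after either rescaling. It also lost its call without any 1 of the pollen arrays (adjusted p = 0.055, 0.081 and 0.077, limma) and with array weights (adjusted p = 0.28, limma). DGD1 and DGD2 add the second galactose. Of their 6 probe sets, 3 were called higher, 4 after quantile normalization and all 6 with equal medians. Over all probe sets, 18.9, 37.0 and 53.3% were called higher in these 3 settings. DGD2 had 7.15, 7.37 and 7.41 on 1 probe set (Gma.5772.1.S1_s_at) in pollen, against 6.17 and 6.20 in sporophytic tissues (adjusted p = 0.002, limma). On another (GmaAffx.91388.1.S1_at) it had 5.43, 5.17 and 5.06 in pollen, against 4.51 and 3.60 in sporophytic tissues (adjusted p = 0.047, limma), below a signal of 100 throughout. DGD1 had 10.00, 9.98 and 10.09 in pollen, against 9.43 and 8.66 in sporophytic tissues (adjusted p = 0.04, limma). DGD1 and the second DGD2 probe set lost their calls when any 1 pollen array was left out.

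The FAD2 desaturases, which make linoleic acid outside plastids, passed the test for 0 of 5 probe sets in limma, and 1 of the 5 had an unadjusted p under 0.05. After equal medians all 5 were called higher, as were 53.3% of all probe sets, and the 2 FAD2-1A probe sets were below a signal of 100 on every array. FAD2-2 (GmaAffx.90006.1.A1_at) had 13.80, 13.81 and 13.79 in pollen, against 12.33 and 13.68 in sporophytic tissues. The omega-3 desaturase FAD3C was lower on 1 probe set (Gma.8463.1.S1_at), with 3.56, 3.56 and 3.55 in pollen, against 8.40 and 6.95 in sporophytic tissues (adjusted p = 0.0039, limma). Its call was lost with a block for the replicate number (adjusted p = 0.055, limma). The study listed this probe set, which its annotation names FAD8, among its lower transcripts, so its direction is not independent. The other FAD3C probe set was called higher, by 0.35 ± 0.06 (SE, adjusted p = 0.0098, limma). FAD8.2 was called higher on 1 of 3 probe sets (Gma.13829.1.A1_at), by 1.51 ± 0.23 (SE, adjusted p = 0.0087, limma), a call lost with array weights (adjusted p = 0.35, limma). These probe sets of FAD3C and FAD8.2 stayed below a signal of 100 on every array. The other 2 FAD8.2 probe sets, with log2 signals of 10.27 to 11.29, were not called, at -0.45 and 0.07. The DGAT1A probe set was below a signal of 100 on every array and was not called (adjusted p = 0.22, limma). Of the other symbols added after the values were seen, the triacylglycerol lipase SDP1-3 was higher in pollen by 0.95 ± 0.24 (SE, adjusted p = 0.035, limma). AAPT1, an aminoalcohol phosphotransferase for phosphatidylcholine and phosphatidylethanolamine, fell by 2.08 ± 0.47 (SE, adjusted p = 0.026, limma) with the deposited values and was not called after either rescaling.

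**Figure D4:**
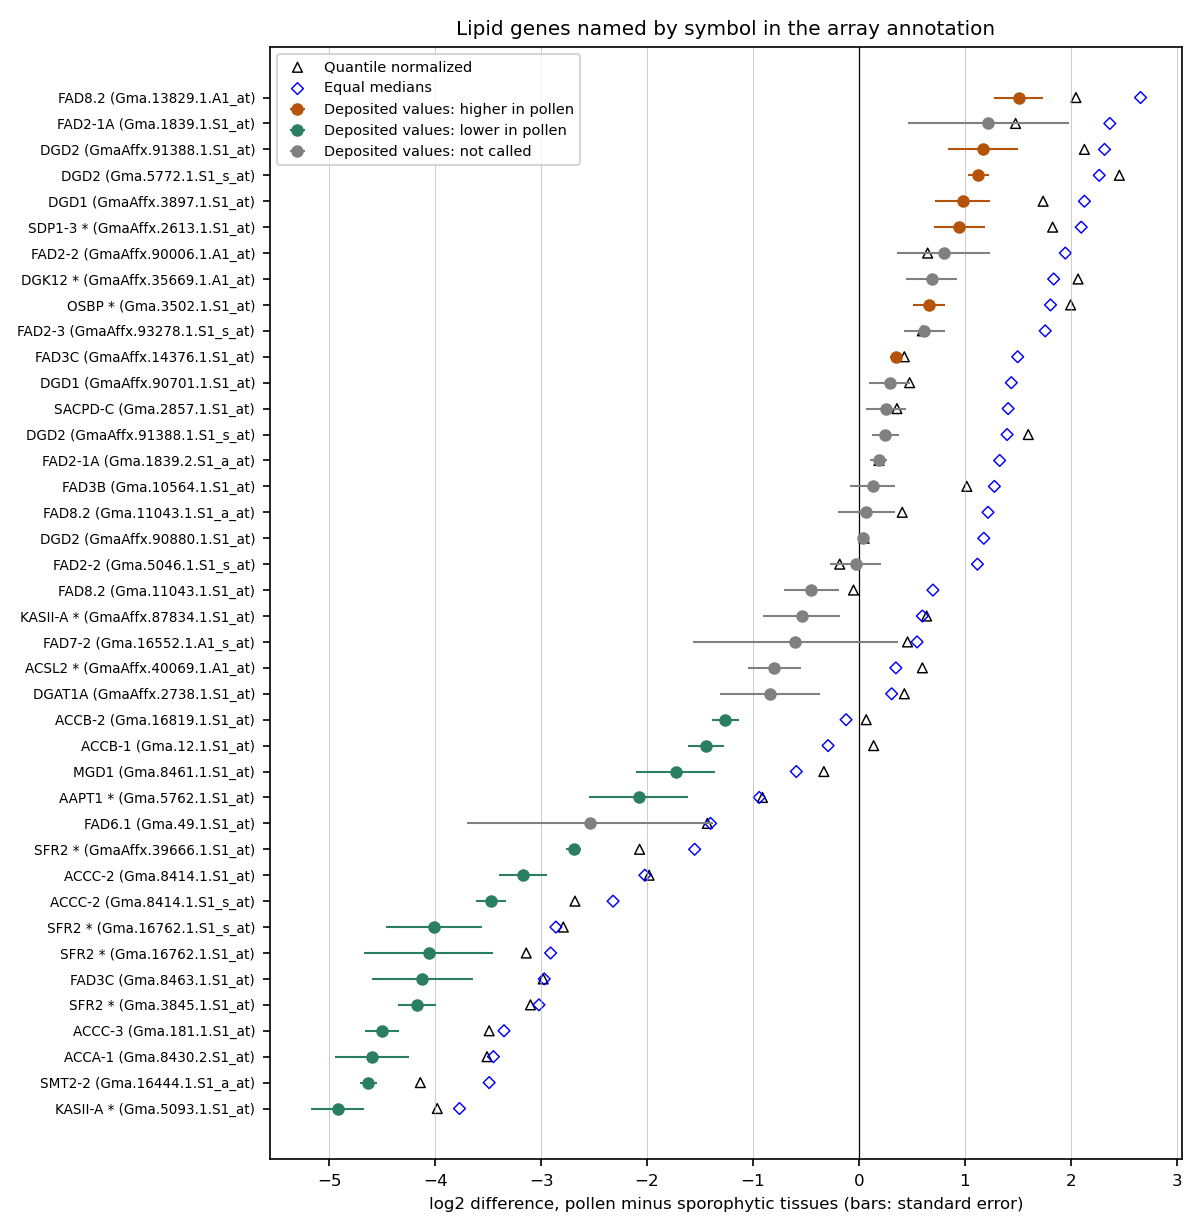
Log2 difference, pollen minus sporophytic tissues (x axis), with its standard error for 40 probe sets of lipid genes named by symbol, coloured by the call from limma on the deposited values; triangles and diamonds give the difference after quantile normalization and after equal medians, and asterisks mark symbols added after the values were seen. Acetyl-CoA carboxylase, SFR2 and SMT2-2 lie on the negative side, with ACCB-1 and ACCB-2 crossing 0 after quantile normalization.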

How the data were processed

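The authors normalized the raw intensities by RMA, with no version given in the sources used here, and deposited log2 signals, used as they are. Neither raw intensities nor present calls were used. Members were found by the words of the rule in the study's list, and were grouped into 9 roles by hand. The members, roles and gene lists were chosen with earlier results of these data known.

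Pollen was compared with sporophytic tissues in limma 3.58.1 (R 4.3.3), by lmFit and eBayes over all 37593 probe sets, two-sided, with Benjamini-Hochberg adjustment and a threshold of 0.05. No filter, covariate or block was used. With 3 and 2 arrays, p-values set the difference between groups against the spread within them, which eBayes adjusts with the variance over all probe sets. Values on the members' contrast are descriptions. Standard errors come from the same fit. The fit was tested on simulated data.

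Lipid genes outside the list were found by symbol, since the annotation held no descriptions: of 38 symbol prefixes, 8 were found. PAP symbols proved to be purple acid phosphatases and were left out, their 9 probe sets entering an added alternative. Values per array were given for up to 3 members a role with the highest pollen mean and for members sharing an Arabidopsis match. FAH1, SLD1, the At2g46210 match, PDAT, PLDDELTA and the genes named from both lists outside the members were chosen after their values were seen. For symbol-named genes the rule took up to 8 rises and 8 falls past the threshold, 1 probe set a symbol, and the others were chosen afterwards. A symbol stood for 8677 probe sets. The columns of fold change and p in the study's lists were not used. For each pollen marker that the study reported among its top transcripts, the log2 difference here was larger than the reported ratio. The reason was not tested. Alternatives covered scaling, a filter on dim probe sets, array weights, an intensity trend and a block for the replicate number. They also covered probe sets of several transcripts or genes, each array left out, the threshold and the signal minimum. Signal over background takes the place of depth on an array. Figures were drawn with matplotlib 3.10.9.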

Additional observations from a re-analysis of the deposited data

How the results depend on the processing

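All 38 members were called higher under the rescalings, the intensity trend, the dim filter, an adjusted p under 0.01 and each pollen array left out. Without probe sets of several transcripts or genes, 32 of 32 were called higher. Array weights and the replicate block called 35 each, and the 3 members lost were different: the At5g57240 oxysterol-binding protein, PDAT and a class 3 lipase with weights, and the lipase precursor match, the UGE5 match and the soluble diacylglycerol acyltransferase match with the block. The cause was not tested. The median difference of the members, 5.60, was 6.18 after quantile normalization, 6.75 with equal medians and 3.41 with signals under 100 set to 100, and 5.46 to 5.83 with an array left out. Pollen-selective members numbered 18 with a signal minimum of 50, and 24 to 32 in the other settings.

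Symbol-named genes called higher numbered 16 with equal medians, 2 without probe sets under 100 on every array, 0 with array weights, 1 with the replicate block and 3 at an adjusted p under 0.01, against 5. With array weights 2 had an unadjusted p under 0.05 in limma. Leaving out an array gave 2 to 7, with 3 without pollen replicate 1, 3 without pollen replicate 2 and 2 without pollen replicate 3. Those called lower, 9, numbered 15 with purple acid phosphatase symbols and 15 with 7 further symbols, both chosen after seeing the data, and 6 to 12 otherwise. ACCB-1 and ACCB-2 turned to 0.14 and 0.07 after quantile normalization. Of the checks on the 12 named probe sets, 109 kept direction and call, 28 lost the call and 2 turned.

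All probe sets called higher numbered 13917 after quantile normalization, 20047 with equal medians, 3839 without dim probe sets, 2182 with array weights, 3511 with the block and 4306 at 0.01, against 7104. Those lower numbered 8350 with weights and 8634 with the block, against 12969. The lower share of calls was 64.6%, and 41.7 and 32.9% after the rescalings. The labels do not say that replicate numbers pair the samples, and deviations sharing a number had correlations of 0.0242 and 0.0161. Few arrays and the spread between the 2 sporophytic arrays limit precision, and below a signal of 100 the size of a difference is poorly measured.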
